A study of Homo sapiens with 6 samples.

Results

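GANAB encodes the catalytic alpha subunit of glucosidase II, an enzyme of the endoplasmic reticulum (ER) that trims glucose from the N-glycans of newly made glycoproteins. It was examined here together with 9 other genes of N-glycan trimming, PRKCSH, MOGS, UGGT1, UGGT2, MAN1A1, MAN1A2, MAN1B1, MAN2A1 and MGAT1, which makes 10 of the 32029 genes in the count files. The set was taken by gene name around GANAB because GANAB rose strongly in the comparison described below, so its own rise is given as a description without a test, and the set was drawn up with results of these data known. All 10 genes passed the filter on low counts, with 465 to 10264 reads in a culture.

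The RNA came from SW480, an established line from a human colorectal adenocarcinoma, sequenced in 6 cultures 48 h after transfection. Of these, 3 cultures received a control siRNA (siNC, genotype WT) and 3 received an siRNA against ZEB1 (siZEB1, ZEB1 knockdown), a transcriptional repressor of epithelial genes, and the comparison asks which transcripts depend on ZEB1. The siRNA sequences and the number of siRNAs are not given in the sources used here, and there was 1 line and 1 time point. The deposited values are reads counted per Ensembl gene, 19040636 to 22357633 per culture. Levels are CPM, read counts scaled to the TMM-adjusted library total, and log2 fold changes are siZEB1 over siNC with a standard error (SE) from edgeR's quasi-likelihood test, with calls made where the p-value adjusted over the 14996 genes tested was below 0.05. ZEB1 itself had 1247, 1276 and 908 reads in the siNC cultures and 136, 132 and 162 in the siZEB1 cultures. Summed levels of colon epithelial markers were 4814 to 5437 CPM in siNC and 5329 to 6002 CPM in siZEB1, with KRT20 near 0 and CDX1 not in the files. Of the 7 markers in the files, 3 were called higher (KRT19, VIL1 and EPCAM) and 1 lower (CDX2). Markers of fibroblasts summed to at most 15.3 CPM, those of leukocytes to at most 1.41 CPM and those of endothelial cells to at most 2.72 CPM in any culture. Of the markers of these 3 cell types, PDGFRB, a fibroblast marker, was called higher (3.98 to 5.33 CPM, log2 fold change 0.42, adjusted p = 0.0281). Their part in the results was not tested.

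An N-glycan is built on a lipid carrier, dolichol, and moved as a whole onto the nascent protein by the oligosaccharyltransferase. Glucosidase I (MOGS) removes the outermost glucose and glucosidase II, a dimer of GANAB and the beta subunit PRKCSH, removes the remaining ones in turn. A glycan with a single glucose is bound by the lectin chaperones calnexin and calreticulin, and UGGT1 and its relative UGGT2 put that glucose back on proteins that are not yet folded. Mannosidases then shorten the glycan, MAN1B1 early in the secretory pathway and MAN1A1 and MAN1A2 in the Golgi. MGAT1 adds the first N-acetylglucosamine, MAN2A1 removes further mannose, and branching enzymes complete the glycan.

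The alpha subunit GANAB (ENSG00000089597, chromosome 11 from 62624826 to 62646726 in GENCODE 29 on GRCh38, minus strand) had 3938, 4454 and 3728 reads with siNC and 10264, 10065 and 10204 with siZEB1. In CPM these were 185, 199 and 193 with siNC and 544, 523 and 533 with siZEB1. The siZEB1 cultures lay far above the siNC cultures, and the spread inside either group was small against the gap between them. The mean level was 192 ± 6.89 CPM with siNC and 533 ± 10.1 CPM with siZEB1 (SD, n = 3 per group), and the log2 fold change was 1.47 (SE 0.055), which is 2.77-fold. In order of log2 fold change, GANAB ranked 143 among the 14996 genes tested. No exon of another annotated gene overlapped its exons. Since these are bulk cultures, a change in RNA per cell and a change in the mix of cells cannot be told apart.

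The beta subunit PRKCSH (ENSG00000130175, chromosome 19 from 11435288 to 11450968) keeps GANAB in the ER. Its level was 240, 242 and 278 CPM with siNC and 316, 311 and 276 CPM with siZEB1. The groups overlapped, because siZEB1 replicate 3 lay just below siNC replicate 3. The means were 253 ± 21.2 and 301 ± 21.97 CPM (SD, n = 3 per group), and the log2 fold change was 0.25 (SE 0.069, edgeR adjusted p = 0.00776), which is 1.19-fold. Without siZEB1 replicate 1 it was 0.21 and no longer called (adjusted p = 0.0578). The reads on the alpha subunit per read on the beta subunit form a ratio within a culture that needs no scaling for library size. This ratio was 0.773, 0.820 and 0.697 with siNC and 1.72, 1.68 and 1.93 with siZEB1. It still holds differences between cultures that follow GC content, which are described below. On the log2 scale PRKCSH deviated from its group mean by 0.14 in siNC replicate 3 and by -0.12 in siZEB1 replicate 3. GANAB deviated by 0.0073 and -0.00058 in these cultures. The mean ratio went from 0.763 ± 0.0624 to 1.78 ± 0.135 (SD, n = 3 each), so the 2 subunits' transcripts did not move in proportion. This ratio contains the value that chose the set and was not tested.

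MOGS (ENSG00000115275, chromosome 2 from 74461057 to 74465410), which encodes glucosidase I, was at 106, 110 and 114 CPM with siNC and 127, 128 and 121 CPM with siZEB1. The groups did not overlap, and the log2 fold change was 0.19 (SE 0.062, adjusted p = 0.0223). This call was lost when siNC replicate 1 (adjusted p = 0.0811), siNC replicate 2 (0.0769), siZEB1 replicate 1 (0.0898) or siZEB1 replicate 2 (0.0901) was left out, with the log2 fold change between 0.16 and 0.19.

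**Figure D1:**
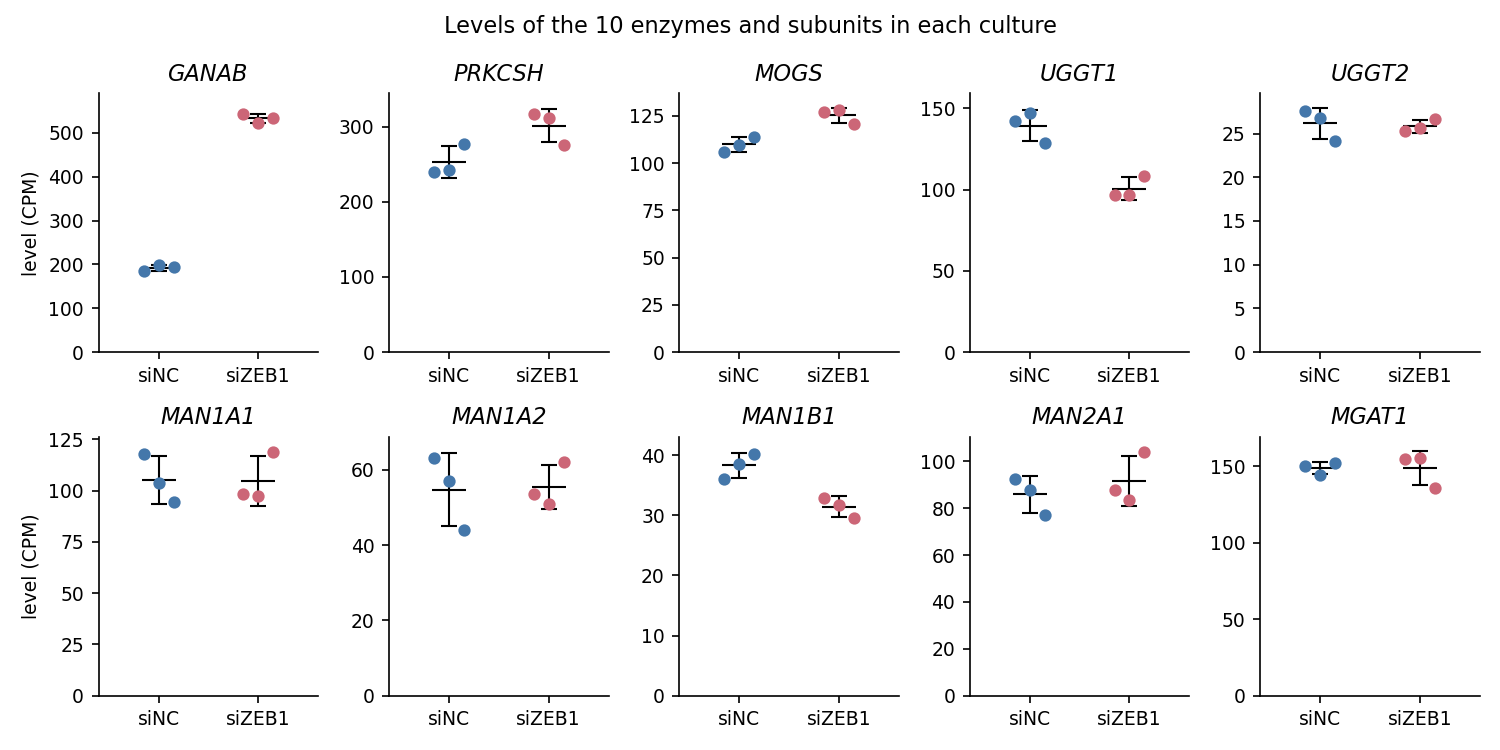
Levels in CPM (vertical axes, each from 0) of the 10 genes in the 3 siNC and 3 siZEB1 cultures, as points in replicate order, with bars for the mean ± SD. GANAB rises from 192 to 533 CPM, UGGT1 and MAN1B1 are lower in each siZEB1 culture than in each siNC culture, and the 2 groups overlap for PRKCSH, UGGT2, MAN1A1, MAN1A2, MAN2A1 and MGAT1.

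UGGT1, the glucosyltransferase that senses incompletely folded glycoproteins, went the other way. UGGT1 (ENSG00000136731, chromosome 2 from 128091200 to 128195677) was at 142, 147 and 128 CPM with siNC and 96.5, 96.7 and 109 CPM with siZEB1. Each siZEB1 culture lay below each siNC culture. The siNC mean of 139 ± 9.56 CPM compared with 101 ± 6.90 CPM with siZEB1 (SD, n = 3 per group), and the log2 fold change was -0.47 (SE 0.071, 95% interval from -0.62 to -0.32, adjusted p = 5.13e-05). It stayed between -0.53 and -0.43 over the 13 alternative fits and kept an adjusted p-value of at most 0.0011, but a rule asking for a 1.5-fold change did not call it.

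UGGT2 (ENSG00000102595, chromosome 13 from 95801580 to 96053482), the less abundant relative, was at 27.6, 26.7 and 24.1 CPM with siNC and 25.3, 25.6 and 26.6 CPM with siZEB1. The groups overlapped, and the log2 fold change of -0.019 had a 95% interval from -0.19 to 0.15 (adjusted p = 0.876). Of the reads on both UGGT genes, UGGT2 took 16.3%, 15.4% and 15.8% with siNC and 20.7%, 20.9% and 19.7% with siZEB1. The difference in the mean share was 4.63 percentage points, and every siZEB1 culture was above every siNC culture. The exact permutation test over cultures, two-sided, gave p = 0.1, which is the smallest value that 3 cultures against 3 allow.

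MAN1B1 (ENSG00000177239, chromosome 9 from 137086927 to 137109187), the mannosidase whose cut helps mark misfolded glycoproteins for disposal, was at 36.1, 38.6 and 40.3 CPM with siNC and 32.9, 31.8 and 29.5 CPM with siZEB1. The groups did not overlap. The siNC mean of 38.3 ± 2.11 CPM compared with 31.4 ± 1.72 CPM with siZEB1 (SD, n = 3 per group), and the log2 fold change was -0.29 (SE 0.078, 95% interval from -0.45 to -0.12, adjusted p = 0.00717), and it kept its call in the 13 alternative fits, though not under the 1.5-fold rule.

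Among the members, the Golgi mannosidases MAN1A1, MAN1A2 and MAN2A1 differed less between the groups than between cultures of a group. MAN1A1 (ENSG00000111885, chromosome 6 from 119177209 to 119349761) was at 118, 104 and 94.3 CPM with siNC and 98.2, 97.2 and 119 CPM with siZEB1, and the highest culture of each group reached nearly the same level. Its log2 fold change of -0.0075 had a 95% interval from -0.19 to 0.18 (adjusted p = 0.955). MAN1A2 (ENSG00000198162, chromosome 1 from 117367449 to 117528872) was at 63.1, 57.1 and 44.1 CPM with siNC and 53.6, 50.8 and 62.0 CPM with siZEB1. Its log2 fold change was 0.016, with a 95% interval from -0.21 to 0.24 (adjusted p = 0.918). For both genes siNC replicate 3 was the lowest siNC culture and siZEB1 replicate 3 the highest siZEB1 culture. Of the reads on MAN1A1 and MAN1A2 together, MAN1A1 took 65.1%, 64.5% and 68.1% with siNC and 64.7%, 65.7% and 65.7% with siZEB1, a difference of -0.55 percentage points (exact permutation test, two-sided, p = 0.9). Without siNC replicate 3 this difference was 0.56 percentage points.

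MAN2A1 (ENSG00000112893, chromosome 5 from 109689366 to 109869625), Golgi mannosidase II, was at 92.7, 88.0 and 77.3 CPM with siNC and 87.9, 83.5 and 104 CPM with siZEB1. The groups overlapped, again with replicate 3 lowest in siNC and highest in siZEB1, and the log2 fold change of 0.093 had a 95% interval from -0.088 to 0.27 (adjusted p = 0.417). MGAT1 (ENSG00000131446, chromosome 5 from 180784782 to 180815652) was at 150, 145 and 152 CPM with siNC and 155, 156 and 136 CPM with siZEB1. Here siZEB1 replicate 3 was the lowest culture of all. The MGAT1 log2 fold change of -0.00068 had a 95% interval from -0.14 to 0.14 (adjusted p = 0.995). Annotated exons on the opposite strand covered 3.41% of the exonic bases of MGAT1, 1.58% of MAN1A1 and 1.24% of PRKCSH, and none of the other members. Whether the counting used the strand is not given in the sources used here.

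Counted without GANAB, 2 of the 9 other members (PRKCSH and MOGS) were called higher and 2 (UGGT1 and MAN1B1) lower. Over all genes tested, 19.0% were called higher and 21.2% lower, 40.2% in all. The cultures of the groups did not overlap at 3 of the 9, (MOGS higher, UGGT1 and MAN1B1 lower), against 49.5% of all genes tested, 24.3% higher and 25.3% lower. The members' set was drawn up with this comparison known, so nothing is read from these counts.

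**Figure D2:**
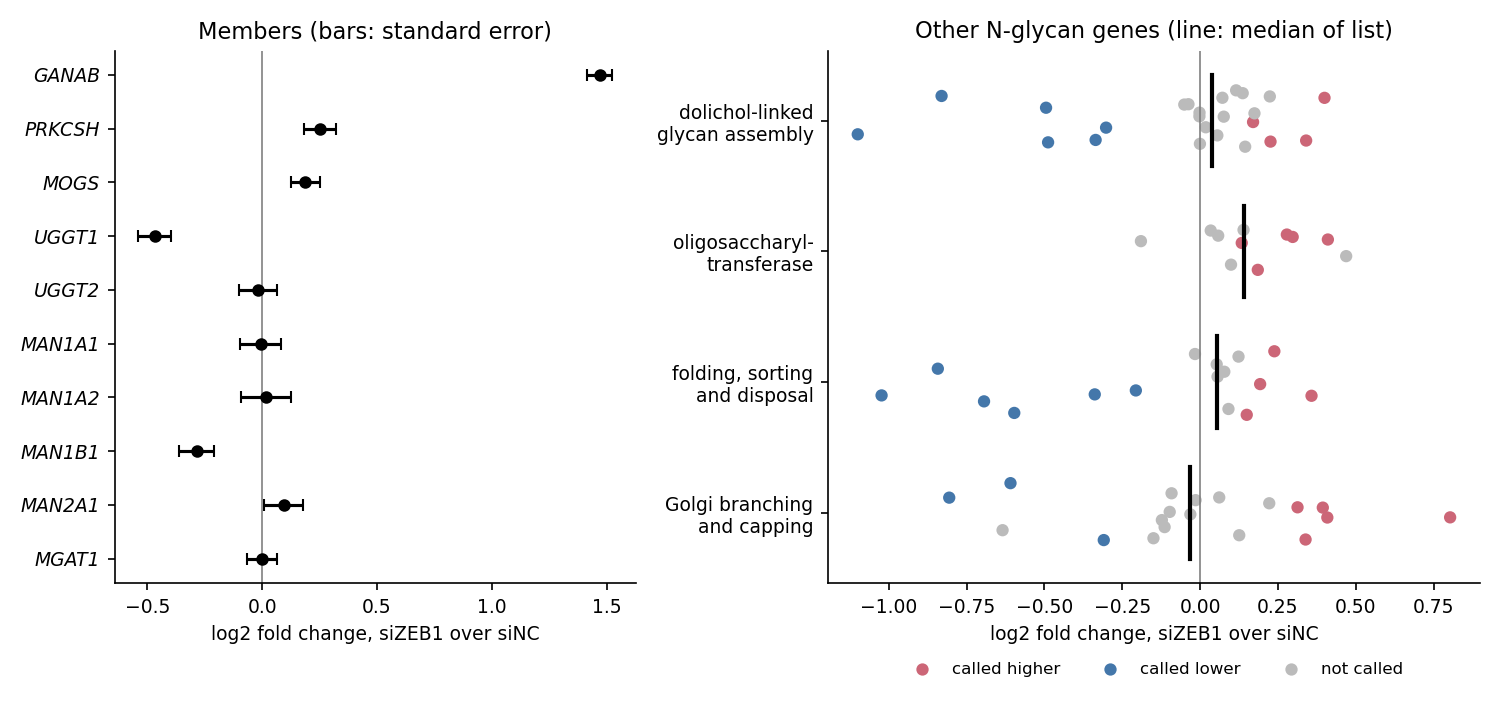
Log2 fold change of siZEB1 over siNC for the 10 members, with bars for the standard error (left), and for the tested genes of 4 lists of other N-glycan genes, as 1 point per gene with a line at the median of the list (right). GANAB, whose rise chose the set, lies at 1.47 while the 9 other members lie between -0.47 and 0.25. The 4 lists hold calls in both directions except the oligosaccharyltransferase list, which has 5 higher and 0 lower.

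Levels of different genes were compared as CPM per kb of exonic sequence, using the union of a gene's annotated exons. With siNC the order was PRKCSH (49.0 ± 4.09 CPM per kb), GANAB (38.3 ± 1.37), MOGS (30.7 ± 1.11), MAN1A1 (21.0 ± 2.34), MGAT1 (12.9 ± 0.334), UGGT1 (12.3 ± 0.843), MAN2A1 (7.28 ± 0.666), MAN1A2 (5.66 ± 1.003), MAN1B1 (4.598 ± 0.253) and UGGT2 (3.23 ± 0.224, SD, n = 3 for each). The glucosidases were thus the most abundant transcripts of the set per length, and the 2 UGGT genes stood far apart. MGAT1 and UGGT1 overlapped over the siNC cultures, as did MAN1A2 and MAN1B1. The lowest MAN2A1 culture (6.55) and the highest MAN1A2 culture (6.52) nearly met.

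With siZEB1, GANAB moved to the top of the order, at 106 ± 2.01 CPM per kb, ahead of PRKCSH at 58.3 ± 4.25 CPM per kb. The other 8 members kept their places, and UGGT1 and MAN2A1 were the only neighbours in this order whose siZEB1 cultures overlapped. The share of GANAB in the summed per-kb level of the 10 members went from between 20.03% and 21.4% in the siNC cultures to between 39.9% and 40.7% in the siZEB1 cultures. The order between genes depends on the length used. Per kb of the longest annotated transcript, which is 2209 bases for PRKCSH against 5166 bases of exon union, PRKCSH was at 136 ± 9.95 CPM per kb and GANAB at 137 ± 2.59 CPM per kb with siZEB1, a difference smaller than the spread between cultures.

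**Figure D3:**
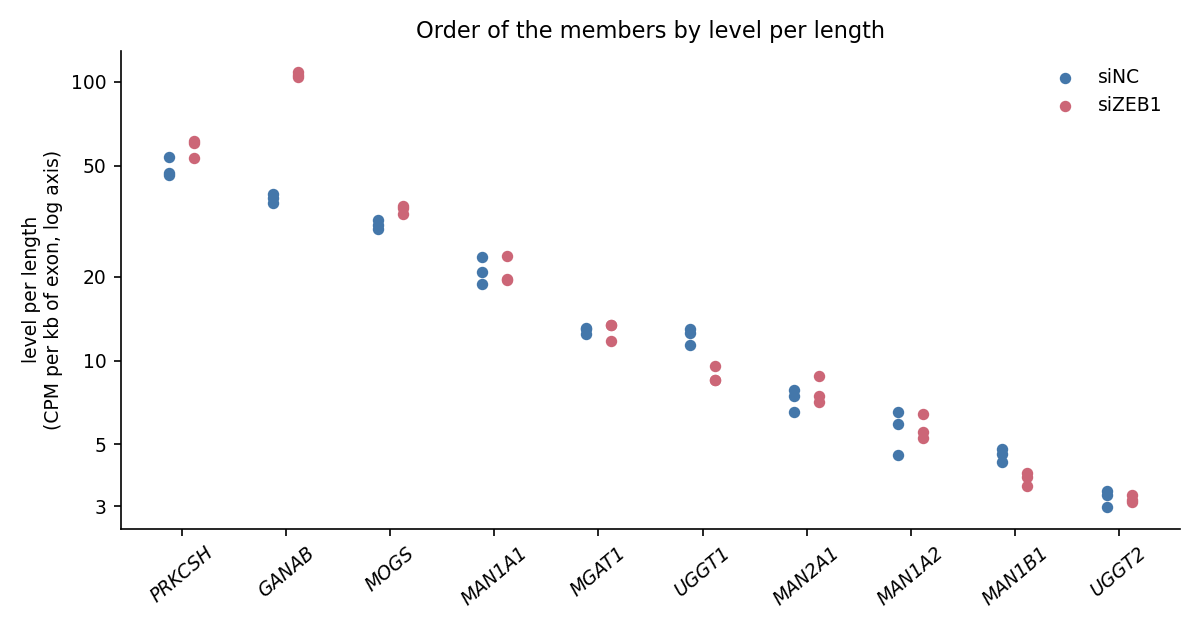
Level per length in CPM per kb of exon (vertical axis, logarithmic) of the 10 members in the siNC and siZEB1 cultures, 1 point per culture, with members ordered by their siNC mean. GANAB goes from 38.3 to 106 CPM per kb and changes places with PRKCSH at 58.3, and the other 8 members keep their places.

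The spread of the members inside a group broadly followed the base composition of their transcripts. The longest transcripts of MAN2A1, MAN1A2, UGGT2, MAN1A1 and UGGT1 were 34.8%, 37.3%, 37.6%, 42.7% and 44.7% G and C. Each of these 5 genes was below its group mean in siNC replicate 3 and above it in siZEB1 replicate 3, by as much as -0.30 (MAN1A2) and 0.19 (MAN1A1) on the log2 scale. The transcripts of PRKCSH, MOGS and MAN1B1 were 61.0%, 61.3% and 57.1% G and C, and these 3 genes were above the mean in siNC replicate 3 and below it in siZEB1 replicate 3. GANAB, at 53.6%, deviated from its group mean by at most 0.055 on the log2 scale in any culture. MGAT1, at a similar 54.5%, deviated by 0.029 in siNC replicate 3 and by -0.13 in siZEB1 replicate 3. The latter was further from the mean than MOGS (-0.052), so the order by GC content was not strict.

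The same held over all genes. Across the 9028 tested genes with a mean of at least 10 CPM and a matched transcript, Pearson's r between GC content and the deviation from the group mean was -0.67 in siNC replicate 1, -0.066 in siNC replicate 2 and 0.60 in siNC replicate 3. It was 0.39, 0.32 and -0.52 in siZEB1 replicates 1, 2 and 3. These are correlations across genes of 1 library, which are not independent replicates. With the log2 fold change between the groups, GC content had an r of -0.11. When each culture was corrected for its smoothed median deviation in bins of GC content, an alternative added after the data had been seen, the log2 fold change was 1.496 for GANAB, 0.32 for PRKCSH (adjusted p = 1.72e-05), 0.26 for MOGS (0.000347), -0.48 for UGGT1 (1.83e-06) and -0.25 for MAN1B1 (0.00282). The correction also removes any part of the ZEB1 comparison that follows GC content. UGGT2, MAN1A1, MAN1A2, MAN2A1 and MGAT1 were not called with the correction, with adjusted p-values from 0.320 to 0.883.

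**Figure D4:**
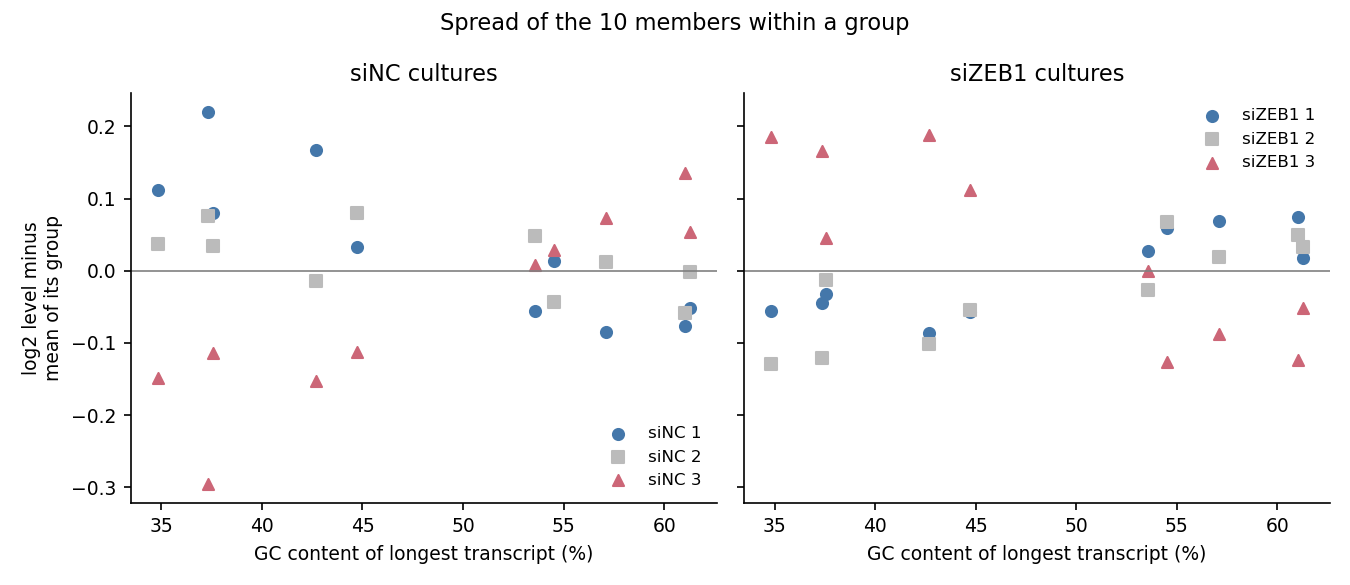
Log2 level of each of the 10 members minus the mean of its group (vertical axis) against the GC content of its longest transcript in percent (horizontal axis), for the siNC (left) and siZEB1 (right) cultures, 1 symbol per replicate. Replicate 3 runs from below 0 for the AT-rich transcripts to above 0 for the GC-rich ones in siNC, and the opposite way in siZEB1.

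The other genes of the pathway were taken as 4 lists compiled by hand. Assembly of the dolichol-linked glycan was represented by 24 genes, all tested, of which 4 were called higher and 6 lower (41.7%, against 40.2% of all genes tested), and their median log2 fold change was 0.037 against -0.0055 over all genes tested. DPAGT1, which starts the lipid-linked chain, was lower, at 85.4 ± 2.56 CPM with siNC and 48.03 ± 1.22 CPM with siZEB1 (log2 fold change -0.83). The mannosyltransferases ALG9 and ALG3 fell by 1.10 and 0.49 on the log2 scale, ALG9 from a low 11.5 ± 0.600 CPM. ALG14 (0.40), ALG5 (0.34) and DPM1 (0.23) rose.

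Of 12 oligosaccharyltransferase subunits, 11 were tested, and TUSC3 was below the filter. OSTC, RPN2, MAGT1, DDOST and STT3A were called higher by edgeR and 0 subunits lower, as in DESeq2. This is 45.5% called against 40.2% of all genes tested, where 19.0% were called higher and 21.2% lower. The list was chosen with earlier results of these data known, so nothing is read from this share. By the unadjusted p-value alone 1 subunit was lower, OST4 (log2 fold change -0.19, unadjusted p = 0.0368, adjusted p = 0.0813). The median log2 fold change was 0.14. The rises were small, from 0.13 for the catalytic subunit STT3A (adjusted p = 0.0498) to 0.41 for OSTC, and 3 subunits were called without siNC replicate 2, without siZEB1 replicate 1 or without siZEB1 replicate 2. STT3B, the other catalytic subunit, was at 317 ± 28.8 CPM with siNC and 340 ± 17.9 CPM with siZEB1 (adjusted p = 0.257).

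Glycan-dependent folding, sorting and disposal was represented by 16 genes, all tested. Of these, 4 were called higher and 6 lower, 62.5% in all against 40.2% of all genes tested. The median log2 fold change was 0.055. Calnexin (CANX) was higher, at 1223 ± 89.7 CPM with siNC and 1568 ± 60.3 CPM with siZEB1 (log2 fold change 0.36). The oxidoreductase PDIA3 rose by 0.24 and calreticulin (CALR) by 0.15, and the ER lectin ERLEC1 rose by 0.19. Without siNC replicate 1, siNC replicate 2 or siZEB1 replicate 2, 2 of these 4 were called. EDEM1, which takes part in the disposal of misfolded glycoproteins, was at 52.2 ± 2.88 CPM with siNC and 25.7 ± 3.11 CPM with siZEB1 (log2 fold change -1.02). The cargo lectin LMAN1 fell by 0.84, the deglycosylating enzyme ENGASE by 0.69, and SELENOF, the partner of the UGGT proteins, by 0.60.

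Of 22 Golgi enzymes and sugar carriers of branching and capping, 19 were tested, 5 were called higher and 3 lower (42.1%, against 40.2% of all genes tested), and the median log2 fold change was -0.031. MAN1C1 (0.218 ± 0.121 CPM with siNC), MGAT2 and MGAT3 were below the filter. The galactosyltransferase B4GALT1 was at 40.01 ± 1.72 CPM with siNC and 69.8 ± 1.49 CPM with siZEB1 (log2 fold change 0.80). The CMP-sialic acid transporter SLC35A1 rose by 0.41 with overlapping groups, and the branching enzyme MGAT5 rose by 0.39. The sialyltransferase ST6GAL1 fell by 0.81, the GDP-fucose transporter SLC35C1 by 0.61 and MAN2A2, the relative of MAN2A1, by 0.31 (adjusted p = 0.00318). In the 4 lists together B4GALT1 had the highest log2 fold change among the called genes, well under that of GANAB, whose rise chose the set.

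The enzymes related to GANAB by sequence family were low. The neutral glucosidase GANC was at 8.91 ± 0.699 CPM with siNC and 7.77 ± 0.279 CPM with siZEB1 (log2 fold change -0.20, adjusted p = 0.180). The lysosomal glucosidase GAA was at 8.27 ± 1.28 and 10.04 ± 1.10 CPM (0.28, adjusted p = 0.101). MGAM was below the filter and SI was not in the files. A p-value above the threshold does not show that GANC and GAA did not change.

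Genes next to GANAB were looked at because position was not used to draw up the set. Of 26 annotated genes within 100 kb, 21 were in the files and 15 were tested, of which 1 was called higher and 2 lower (20%, against 40.2% of all genes). INTS5, which lies 122 bases beyond the 5′ end of GANAB, was at 43.7 CPM with siNC and 48.6 CPM with siZEB1 (log2 fold change 0.16, adjusted p = 0.166). B3GAT3, 2.65 kb away on the other side, was at 33.5 and 32.0 CPM (-0.065, adjusted p = 0.614). The called genes were TUT1 (0.33, adjusted p = 0.0131), EML3 (-0.72) and AHNAK (-0.38), and the span of TUT1 overlaps that of AP002990.1 on the same strand. Without siNC replicate 3, 5 neighbours were called. MTA2, a subunit of the NuRD complex 23.0 kb away, was at 323 and 313 CPM (-0.048, adjusted p = 0.557).

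**Figure D5:**
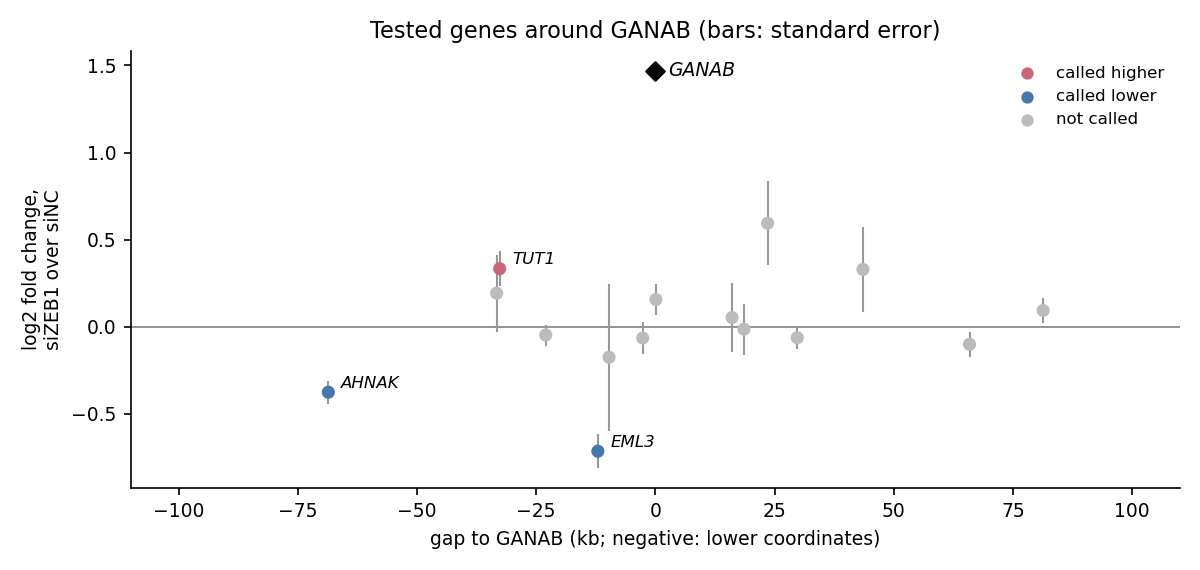
Log2 fold change of siZEB1 over siNC, with bars for the standard error, of the 15 tested genes within 100 kb of GANAB against the gap to GANAB in kb, with GANAB itself as a diamond at 0. GANAB, whose rise chose the set, stands at 1.47 while its neighbours lie between -0.72 and 0.59. TUT1 is called higher and EML3 and AHNAK lower.

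Promoter windows of 300 bases around annotated starts (RefSeq, GRCh38.p14) were found for 8 of the 10 members, 15 windows in all, and not for MOGS and MAN1A2. They were searched on both strands for CACCTG, the E-box letters that ZEB1 binds, and for the ER stress element, CCAAT and CCACG with 9 bases between them. CACCTG was present in 20.6% of all 35116 windows and the ER stress element in 0.0769%. Among the members the E-box letters were found in the window of MAN1B1 and in 2 of the 6 windows of MGAT1, and the ER stress element in none. The window of GANAB held neither. The sites are printed 5′ to 3′ on the strand of the gene, with the E-box letters in capitals, to show where the repressor's letters do occur in the set.
MAN1B1, chr9:137086783-137086812, plus strand, position -190 from the start: acgctcgtagcaCACCTGggcaggcgctgc
MGAT1, chr5:180810467-180810496, minus strand, position -28 from a start: cccgcgcggctcCACCTGccgcgcgcttcc
MGAT1, chr5:180810362-180810387, minus strand, position -242 from another start: tctgcccaCACCTGttcttcagccct
A match describes the letters and says nothing about binding. MAN1B1 was lower and MGAT1 not called in the comparison.

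The 3′UTRs were searched for GAACACA, 7 letters picked out by an earlier scan of these data. They occur in the 3′UTR of 10.7% of 12321 tested genes with one. Of the 10 members, UGGT1 and MGAT1 held the letters once each, shown in capitals with the bases around them (GENCODE 29).
UGGT1: catttcgaattGAACACAtagatgcttgc
MGAT1: gctaatacccaGAACACAgacagactgtt
UGGT1 had the lowest log2 fold change of the members and MGAT1 one near 0. Both 3′UTRs were long, 5935 and 6852 bases, against 989 for GANAB. Among the tested genes of the 4 lists, 9 held GAACACA, of which 4 were lower (DPAGT1, LMAN1, SELENOF and SLC35C1), 2 higher (ALG14 and B4GALT1) and 3 not called. Of the 61 that did not hold it, 11 were lower, 16 higher and 34 not called. Over all genes tested, 21.2% were called lower and 19.0% higher. A second 7-mer from the same scan, CGGAGAA, occurs in 2.13% of the 12321 genes and was found in 0 members and in 1 gene of the lists, MPDU1. Since these letters were chosen on the same cultures, the counts are not independent of the calls, and nothing is read from them.

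The genes whose values over the 6 cultures were most like those of GANAB were sought by the distance between log2 CPM values after removal of each gene's mean, among 9029 other genes with a mean of at least 10 CPM. The nearest were SHH, at a distance of 0.10, then TUFT1 (0.21), MESD (0.22), HABP4 (0.22) and C6orf132 (0.25). SHH had 293, 353 and 269 reads with siNC and 788, 778 and 777 with siZEB1, far fewer than GANAB, with a log2 fold change of 1.495. The other 4 had log2 fold changes from 1.37 to 1.65. With 6 cultures in 2 groups, likeness rests mostly on the size of the difference between the groups.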

How the data were processed

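SW480 RNA from 3 siNC and 3 siZEB1 cultures, described by the study as biological replicates, was analysed from 1 count table per culture. The deposited values are whole-number counts of reads per Ensembl gene, not normalized. The submitters' processing notes name Trimmomatic, HISAT2, SAMtools, featureCounts and hg38. Versions, annotation and strand setting are not given in the sources used here.

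Genes were kept by filterByExpr, scaled by TMM and tested with edgeR 4.0.16 (quasi-likelihood, two-sided, group alone, Benjamini-Hochberg over 14996 genes) in R 4.3.3, after the test had been tested on simulated data. Within a group, pairs of cultures differed by 2.26 to 9.50 times the sampling noise (chi-square over degrees of freedom), so none was a copy of another. Within-culture shares were tested by exact permutation, which for 3 against 3 cannot go below 0.1. Coordinates, exon lengths, GC content (of the longest transcript) and 3′UTRs (of the transcript with the longest coding sequence) came from GENCODE 29, matched by identifier for 31059 of 32029 genes. Promoters came from RefSeq.

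Alternatives were DESeq2 1.42.0, median-of-ratios factors (edgeR's RLE), total library size, other filters, a replicate block, each culture left out, other call rules and, added after seeing the data, offsets by GC content. Named were all members, ZEB1, up to 3 called genes per direction and list, 7 fixed genes, relatives of GANAB, its called neighbours and the 5 genes most like it. SELENOF, DDOST, OST4, INTS5, B3GAT3, MTA2, MPDU1 and the markers were named beyond this after values were seen. The members and lists were chosen with earlier results of these data known.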

Additional observations from a re-analysis of the deposited data

How the results depend on the processing

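The direction of GANAB, PRKCSH, MOGS, UGGT1 and MAN1B1 held in all 13 alternatives, GANAB between 1.44 and 1.496 on the log2 scale. In this section the calls of members are counted without GANAB. With cultures left out in turn, the members called higher ran from 0 to 2, and the oligosaccharyltransferase genes called higher from 3 to 5. The folding, sorting and disposal genes called higher ran from 2 to 4, and the called neighbours of GANAB from 2 to 5. With the replicate block these 3 lists gave 1 member, 3 and 2 genes, and MOGS was not called (adjusted p = 0.111). Same-numbered cultures correlated at -0.33, -0.33 and -0.65 in their deviations from the group means, and none correlated best with its own number. These deviations follow GC content, so whether same-numbered cultures were handled together cannot be told from them. A fold change above 1.5 with an unadjusted p-value under 0.05 left 1081 genes higher and 1402 lower. Under this rule 0 of the 9 members other than GANAB were called, and 0 dolichol genes were higher and 2 lower. Of the oligosaccharyltransferase genes 0 were called, of the folding genes 0 higher and 4 lower, and of the Golgi genes 1 higher and 2 lower. An adjusted p-value under 0.01 left 1, 3 and 2 called higher among the members, oligosaccharyltransferase and folding genes, and without a filter the folding genes called higher were 2. With GC offsets 5 neighbours of GANAB were called.

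The sign changed for UGGT2, MAN1A1, MAN1A2, MAN2A1 and MGAT1, none of them called, and for the MAN1A1 share, and the cause was not tested. With cultures left out, UGGT2 ran from -0.075 to 0.019 (without siNC replicate 1), MAN1A1 from -0.11 to 0.078, MAN1A2 from -0.12 to 0.13, MAN2A1 from -0.0040 to 0.16 and MGAT1 from -0.034 to 0.062. MAN1A1 was 8.57e-06 with median-of-ratios factors, 0.00015 with DESeq2, and 0.078, 0.038 and 0.044 without siNC replicate 1, siZEB1 replicate 1 and siZEB1 replicate 2. MAN1A2 was -0.12 without siNC replicate 3, -0.070 without siZEB1 replicate 3 and -0.047 with GC offsets. MAN2A1 was -0.0040 without siZEB1 replicate 3. MGAT1 was 0.0068 with median-of-ratios factors and with DESeq2, 0.00028 with at least 10 counts in every culture, 0.0049, 0.011 and 0.062 without siNC replicates 1 and 3 and siZEB1 replicate 3, and 0.023 with GC offsets. The MAN1A1 share difference ran from -1.25 to 0.56 percentage points with cultures left out. At 465 to 10264 reads per culture, UGGT2, MAN1B1 and MAN1A2 had the fewest reads. The SE of the log2 fold change did not follow depth alone. It was largest for MAN1A2 (0.107), MAN1A1 (0.088) and MAN2A1 (0.085), ahead of UGGT2 (0.082) and MAN1B1 (0.078).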
